A study of Mus musculus with 10 samples.

Results

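The 8 genes 1810065E05Rik, Arl14, Adhfe1, Apol10a, Myrfl, Sema3f, Tcaf2 and Foxd2 were followed across 10 arrays of mouse colonic organoids. They were taken from 23099 annotated probe sets and were chosen by how their measured log2 levels set organoids labelled PPARγ KO apart from organoids labelled wild type (WT), so the genotype differences below describe that choice and carry no test. Each of the 8 genes was measured by 1 probe set, and all 8 matched a RefSeq gene by Entrez identifier.

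Organoids are epithelial cultures grown in Matrigel from isolated crypts, here from the colon of male mice on a C57BL/6J background, with no age in the sources used here. PPARγ KO mice were homozygous for a Pparg allele with exons 1 and 2 floxed and carried a Villin-Cre transgene, whose promoter is active in the intestinal epithelium. The WT mice were littermates, and the sources used here do not state their floxed and Cre alleles. Every culture received Wnt, Noggin, R-spondin, EGF, nicotinamide and a kinase inhibitor, among other supplements. For 24 h the organoids were given 1 µM rosiglitazone, a drug that activates PPARγ, or 0.1% DMSO as vehicle. The groups were KO rosiglitazone (n = 3 arrays, replicates 1, 2 and 3 from mice 46, 45 and 44), KO vehicle (n = 2, mice 46 and 44), WT rosiglitazone (n = 3, mice 48, 42 and 47) and WT vehicle (n = 2, mice 42 and 47). Each array of a group came from a different mouse, 6 mice in all, and 4 of the mice gave an array of each treatment.

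PPARγ is a lipid-activated nuclear receptor. It pairs with RXR, and the pair binds DNA at a direct repeat of the half-site AGGTCA with 1 base between the copies. In the colon it is abundant in the differentiated epithelium. The 8 genes have no common pathway. They hold a small GTPase, a mitochondrial enzyme, an apolipoprotein L, a secreted guidance protein, a channel-associated protein, a pair of transcription factor genes and a gene with no established role.

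Values are RMA expression levels on the log2 scale, so a difference of 1 is a doubling of the linear signal. Array medians lay between 3.54 and 3.72, and arrays of a group correlated at r from 0.986 to 0.996 across probe sets. Both arrays of KO mouse 46 stood apart on the leading principal component (27.4% of the variance), at -31.8 and -39.3, against -4.1 to 19.6 for the other arrays. Pparg itself was read by 1 probe set, at 7.37 to 8.78 in KO arrays and 7.59 to 8.41 in WT arrays. Its difference, KO minus WT, was 0.25 in rosiglitazone (SE 0.31, n = 3 and 3, adjusted p = 0.999, limma) and 0.14 in vehicle (SE 0.38, n = 2 and 2, adjusted p = 0.96, limma). No source used here places its probes relative to the floxed exons. The probe set therefore checks neither the deletion nor the labels, and every direction between genotypes rests on the labels. Of 10 markers of colonic epithelium 9 were measured, with means from 2.60 (Slc26a3) to 12.44 (Krt8). Fibroblast, endothelial, smooth muscle and glial markers had means of at most 3.99 (Col1a1).

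The RefSeq table of GRCm38.p6 held a promoter for 5 of the 8 genes. Each window runs from 250 bases before to 50 bases after an annotated start. All 5 are shown because the genes were chosen on the genotype of a DNA-binding receptor. The 1810065E05Rik window lies at chr11:58420861-58421160 on the plus strand, that of Arl14 at chr3:69222169-69222468 (plus), that of Apol10a at chr15:77476797-77477096 (plus), that of Tcaf2 at chr6:42644992-42645291 (minus) and that of Foxd2 at chr4:114908849-114909148 (minus). Capitals mark the motifs AGGTCA and TATAAA and the motifs TTTATG and GGGCGG, on either strand.
1810065E05Rik: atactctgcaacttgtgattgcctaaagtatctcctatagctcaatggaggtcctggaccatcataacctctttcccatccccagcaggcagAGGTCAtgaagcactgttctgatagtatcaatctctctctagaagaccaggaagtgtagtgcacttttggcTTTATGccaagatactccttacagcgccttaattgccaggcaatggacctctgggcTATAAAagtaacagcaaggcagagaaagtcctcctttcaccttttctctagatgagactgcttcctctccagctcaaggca
Arl14: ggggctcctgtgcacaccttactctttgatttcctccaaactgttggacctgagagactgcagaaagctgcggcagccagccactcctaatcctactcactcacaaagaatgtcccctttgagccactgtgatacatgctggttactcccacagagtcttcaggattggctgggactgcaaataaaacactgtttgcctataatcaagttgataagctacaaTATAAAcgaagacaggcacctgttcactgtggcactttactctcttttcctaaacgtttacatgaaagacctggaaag
Apol10a: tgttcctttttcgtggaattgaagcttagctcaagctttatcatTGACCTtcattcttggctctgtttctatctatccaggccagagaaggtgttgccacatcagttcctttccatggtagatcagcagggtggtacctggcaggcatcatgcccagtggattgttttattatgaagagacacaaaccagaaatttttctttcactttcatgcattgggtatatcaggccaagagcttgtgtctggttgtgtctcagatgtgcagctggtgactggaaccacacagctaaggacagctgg
Tcaf2: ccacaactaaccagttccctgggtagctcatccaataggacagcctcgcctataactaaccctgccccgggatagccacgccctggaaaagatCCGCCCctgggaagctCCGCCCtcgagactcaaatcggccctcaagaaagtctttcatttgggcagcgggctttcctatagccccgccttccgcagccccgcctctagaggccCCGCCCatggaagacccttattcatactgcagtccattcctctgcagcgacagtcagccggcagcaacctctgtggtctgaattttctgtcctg
Foxd2: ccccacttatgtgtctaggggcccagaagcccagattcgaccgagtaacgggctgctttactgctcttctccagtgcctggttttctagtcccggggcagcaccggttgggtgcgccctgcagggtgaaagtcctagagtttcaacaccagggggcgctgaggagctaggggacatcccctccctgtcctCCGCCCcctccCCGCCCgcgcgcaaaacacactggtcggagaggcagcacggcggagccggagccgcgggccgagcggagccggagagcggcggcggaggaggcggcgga

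The 5 windows fell into a GC-poor and a GC-rich kind. The windows of 1810065E05Rik, Arl14 and Apol10a had a GC content of 46.3%, 46% and 45.3% and held 1, 3 and 1 CpG dinucleotides. Those of Tcaf2 and Foxd2 had 58% and 67.7% GC and 14 and 26 CpG, against medians of 53% and 7 over 32544 distinct promoter windows. TATAAA stood 31 bases before the start of 1810065E05Rik and 28 bases before that of Arl14, and 13.6% of all windows hold it on either strand. The half-site AGGTCA stood 158 bases before the start of 1810065E05Rik and, on the other strand, 206 bases before that of Apol10a, and 16.2% of all windows hold it. TTTATG, the core read by CDX factors of the intestine, stood 87 bases before the 1810065E05Rik start, a match that 11.9% of windows have. GGGCGG occurred on the other strand in the windows of Foxd2 and Tcaf2, as in 35.9% of all windows. A pair of AGGTCA copies 1 base apart was in none of the 5 windows and in 0.0399% of all windows. A relaxed form of that repeat (0.224% of all windows) was also in none of the 5, and so were GTTAAT (7.13%), AGATAA (11.2%), TGAGTCA (5.19%), CAAAGT (14.4%), CCGGAA (15.0%) and GGTTAA (7.79%). Both strands were searched with 12 motifs in all, and the relaxed repeat overlaps the exact one. These are matches of letters only.

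Of the 8 genes 6 were lower in all 5 KO arrays than in any WT array (1810065E05Rik, Arl14, Apol10a, Sema3f, Tcaf2 and Foxd2), and 1, Myrfl, was higher in all 5. Over all probe sets 1.02% lay apart with KO lower and 0.905% with KO higher, 1.93% in all. Adhfe1 was the exception, since its KO and WT arrays overlapped by 0.04 in vehicle. Within rosiglitazone 8 of 8 genes did not overlap between genotypes (8.69% of all probe sets), 7 with KO lower (4.47%) and 1 with KO higher (4.22%). Within vehicle 7 of 8 did not (39.1%), 6 with KO lower (16.1%) and 1 with KO higher (23.0%). Of all probe sets 5 passed the threshold between genotypes in rosiglitazone (0.0216%) and 3 of these are among the 8 genes, while 0 passed in vehicle (0%), with 1314 at an unadjusted p under 0.05. Since these contrasts chose the genes, nothing is read from those counts. In bulk organoids, fewer cells of a type and less RNA per cell cannot be told apart.

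**Figure D1:**
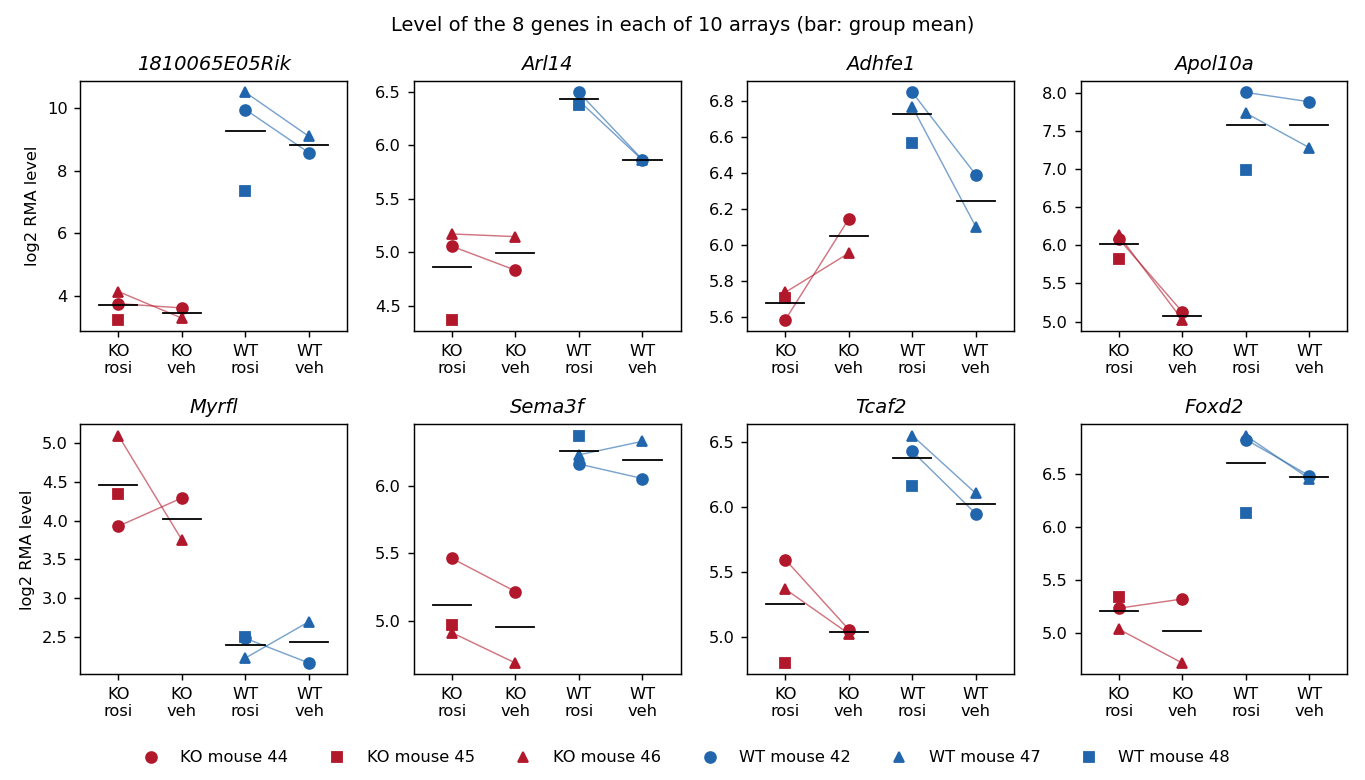
Level of each of the 8 genes (log2 RMA, vertical axis, its own scale in each panel) in KO rosiglitazone, KO vehicle, WT rosiglitazone and WT vehicle arrays. Points are arrays, shapes are mice, thin lines join the arrays of one mouse and black bars are group means; red and blue points separate in 7 panels and overlap narrowly in the Adhfe1 panel.

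1810065E05Rik is a protein-coding gene of chromosome 11 with no established role, and it had the widest genotype difference of the 8. It read 4.13, 3.23 and 3.75 in KO rosiglitazone and 3.28 and 3.61 in KO vehicle, against 7.36, 9.96 and 10.51 in WT rosiglitazone and 8.58 and 9.10 in WT vehicle. All KO arrays lay below all WT arrays, with a gap of 3.23 between the nearest. The difference was -5.57 in rosiglitazone (SE 0.64, n = 3 and 3) and -5.39 in vehicle (SE 0.79, n = 2 and 2), which is 47.6-fold and 42-fold lower on the linear scale. In size these were the largest differences of all 23099 probe sets in both treatments. The KO readings stood between the 45.3 and 55.7 percentile of their arrays, near the array median, so the fold rests on how well RMA separates dim probe sets. It also depends on single arrays, since the rosiglitazone difference was -6.53 without WT rosiglitazone replicate 1 and -4.96 without WT rosiglitazone replicate 3. Among WT arrays the one of mouse 48 (rosiglitazone replicate 1) was the lowest.

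Arl14, on chromosome 3, encodes a small GTPase of the ARF-like family, known in human dendritic cells for the transport of vesicles with MHC class II. It read 5.17, 4.37 and 5.06 in KO rosiglitazone and 5.15 and 4.83 in KO vehicle, against 6.37, 6.49 and 6.42 in WT rosiglitazone and 5.87 and 5.86 in WT vehicle. The KO arrays were all lower than the WT arrays, by at least 0.69. The difference was -1.56 in rosiglitazone (SE 0.19, n = 3 and 3) and -0.87 in vehicle (SE 0.24, n = 2 and 2). The WT arrays were tightly grouped within each treatment, and the WT vehicle arrays were the WT arrays nearest to KO.

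Adhfe1, on chromosome 1, encodes a mitochondrial transhydrogenase that oxidises 4-hydroxybutyrate while it reduces 2-oxoglutarate to D-2-hydroxyglutarate. It read 5.74, 5.70 and 5.59 in KO rosiglitazone and 5.96 and 6.15 in KO vehicle, against 6.57, 6.85 and 6.77 in WT rosiglitazone and 6.39 and 6.10 in WT vehicle. The rosiglitazone arrays separated fully, while the KO vehicle array of mouse 44 lay just above the WT vehicle array of mouse 47. The difference was -1.05 in rosiglitazone (SE 0.13, n = 3 and 3) and -0.19 in vehicle (SE 0.16, n = 2 and 2). The size of the vehicle value was unsettled. It was -0.05 without WT vehicle replicate 1, -0.34 without WT vehicle replicate 2, -0.10 without KO vehicle replicate 1 and -0.07 with each array centred on its median.

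Apol10a, on chromosome 15, belongs to the apolipoprotein L family, whose members bind lipids and act largely inside cells. It read 6.13, 5.82 and 6.09 in KO rosiglitazone and 5.02 and 5.13 in KO vehicle, against 6.99, 8.01 and 7.74 in WT rosiglitazone and 7.88 and 7.28 in WT vehicle. All KO arrays were lower, and the KO vehicle arrays were the lowest of all. The difference was -1.57 in rosiglitazone (SE 0.25, n = 3 and 3) and -2.51 in vehicle (SE 0.30, n = 2 and 2).

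Myrfl, on chromosome 10, is a paralog of Myrf, the membrane-bound transcription factor of myelin genes. It read 5.09, 4.34 and 3.93 in KO rosiglitazone and 3.75 and 4.29 in KO vehicle, against 2.49, 2.48 and 2.23 in WT rosiglitazone and 2.17 and 2.70 in WT vehicle. It was the only one of the 8 with higher readings in KO. The difference was 2.05 in rosiglitazone (SE 0.28, n = 3 and 3) and 1.59 in vehicle (SE 0.34, n = 2 and 2). The WT readings stood between the 20.8 and 35.9 percentile of their arrays, which is a dim range.

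Foxd2, on chromosome 4, encodes a forkhead transcription factor studied mainly in mesenchyme and kidney. It read 5.04, 5.34 and 5.24 in KO rosiglitazone and 4.72 and 5.32 in KO vehicle, against 6.13, 6.82 and 6.86 in WT rosiglitazone and 6.48 and 6.45 in WT vehicle. All KO arrays were lower, and the WT array nearest to them was again that of mouse 48. The difference was -1.40 in rosiglitazone (SE 0.21, n = 3 and 3) and -1.44 in vehicle (SE 0.26, n = 2 and 2), so it was of like size under both treatments.

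Sema3f, on chromosome 9, encodes a secreted class 3 semaphorin, a guidance cue that signals through neuropilin 2 and plexins. It read 4.91, 4.96 and 5.46 in KO rosiglitazone and 4.68 and 5.22 in KO vehicle, against 6.38, 6.16 and 6.23 in WT rosiglitazone and 6.06 and 6.33 in WT vehicle. All KO arrays were lower, and the WT arrays spanned only 0.32. The difference was -1.15 in rosiglitazone (SE 0.19, n = 3 and 3) and -1.24 in vehicle (SE 0.23, n = 2 and 2).

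Tcaf2, on chromosome 6, encodes a factor that associates with the TRPM8 channel. It read 5.37, 4.80 and 5.60 in KO rosiglitazone and 5.03 and 5.06 in KO vehicle, against 6.16, 6.43 and 6.55 in WT rosiglitazone and 5.95 and 6.11 in WT vehicle. All KO arrays were lower, by a gap of 0.35, the narrowest of the 7 genes whose arrays did not overlap. The difference was -1.13 in rosiglitazone (SE 0.19, n = 3 and 3) and -0.99 in vehicle (SE 0.24, n = 2 and 2). Tcaf2 is the one gene of the 8 on the chromosome that holds Pparg, with 1411 RefSeq genes between them in GRCm38.p6.

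**Figure D2:**
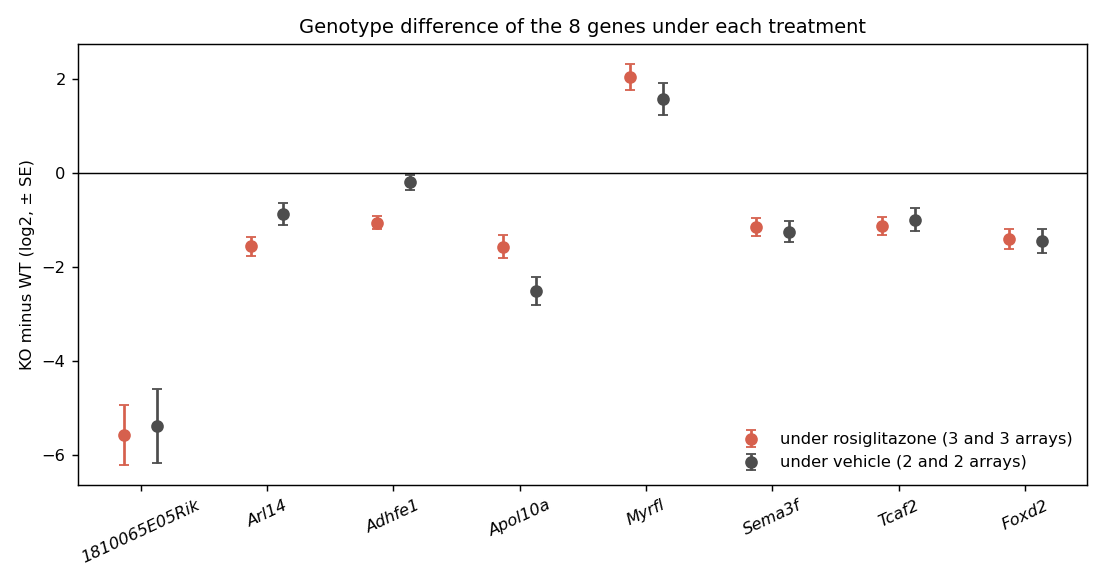
Difference KO minus WT (log2, vertical axis) of each gene under rosiglitazone (3 and 3 arrays) and under vehicle (2 and 2 arrays), with the standard error of the limma fit. There 7 genes lie below 0 and Myrfl lies above it; Adhfe1 has -1.05 under rosiglitazone and -0.19 under vehicle.

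By mouse, with the arrays of one mouse averaged first, 1810065E05Rik averaged 3.54 ± 0.27 in KO mice and 8.81 ± 1.28 in WT mice (SD, n = 3 mice each). Apol10a averaged 5.67 ± 0.13 in KO mice and 7.48 ± 0.48 in WT mice, and Myrfl 4.29 ± 0.16 in KO mice and 2.43 ± 0.09 in WT mice. Arl14 averaged 4.83 ± 0.41 in KO mice and 6.23 ± 0.12 in WT mice. Adhfe1, which overlapped by array, averaged 5.81 ± 0.09 in KO mice and 6.54 ± 0.10 in WT mice. All these mouse means mix treatments unevenly, since mice 45 and 48 gave a rosiglitazone array only. The Adhfe1 difference was -1.05 in rosiglitazone and -0.19 in vehicle, so its mouse means do not describe vehicle alone. The differences between mouse means of the other 3 ran from -1.31 (Foxd2) to -1.12 (Tcaf2). Within a genotype no single array was the extreme of every gene. KO rosiglitazone replicate 2 (mouse 45) was the lowest KO array for 3 genes, 1810065E05Rik, Arl14 and Tcaf2, and KO vehicle replicate 1 (mouse 46) for 4, Apol10a, Myrfl, Sema3f and Foxd2. WT rosiglitazone replicate 1 (mouse 48) was the lowest WT array for 3 genes and the highest for Sema3f.

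Markers of cell types were set beside these differences. Levels are the log2 of summed linear signals per array. The goblet list (7 genes measured) ranged from 6.73 to 11.46 in KO arrays and from 7.10 to 8.98 in WT arrays, with KO rosiglitazone replicate 2 (mouse 45) the highest and replicate 1 (mouse 46) the lowest. All 7 goblet genes had a higher mean in KO than in WT under rosiglitazone, by 1.13 (Zg16) to 1.96 (Spink4, SE 1.02, adjusted p = 0.999, limma), and 5 of 7 a lower one under vehicle. These 2 comparisons do not hold the same mice, since mouse 45 gave no vehicle array. The goblet sum of KO mouse 44 was 9.57 in rosiglitazone and 8.76 in vehicle, and that of KO mouse 46 was 6.73 and 6.93. The colonocyte list (8 genes) ranged from 11.32 to 12.05 in KO and from 11.84 to 12.46 in WT, a sum carried by Car1. Its single genes differed more than the sum. Under vehicle all 8 had a lower mean in KO, with a median difference of -0.66. Among them the dim Aqp8 (mean 2.36) differed by only -0.03 (SE 0.19), and the dim Slc26a3 by -0.45 (SE 0.57). Slc9a3, a sodium-proton exchanger, differed by -3.08 (SE 0.53, adjusted p = 0.363, limma), Guca2a, which encodes guanylin, by -2.19 (SE 0.52, adjusted p = 0.787) and Car4, a carbonic anhydrase, by -1.41 (SE 1.14, adjusted p = 0.872). Under rosiglitazone 6 of the 8 were lower in KO, with a median of -0.10. There Slc9a3 differed by -0.57, Car4 by -0.02 and Guca2a by 0.32. The largest of the list under rosiglitazone was the dim Slc26a3, higher in KO by 0.92 (SE 0.46). The Slc9a3 difference under vehicle exceeded those of all the 8 genes but 1810065E05Rik. Of 5 deep crypt secretory and Paneth markers 4 were higher in KO under rosiglitazone and 1 lower, with a median of 0.83. Among them Defa24 differed by 2.18 (SE 0.95, adjusted p = 0.999, limma) and ranged from 1.94 to 7.05 in KO arrays. In size this too exceeded the rosiglitazone differences of all the 8 genes but 1810065E05Rik. Under vehicle 2 of these 5 markers were lower in KO, with a median of 0.24. Their summed level was also highest in the rosiglitazone array of mouse 45, at 10.02. Stem cell markers (5 genes) ranged from 9.20 to 10.13 in KO and from 9.55 to 9.92 in WT. The immune list (4 genes) lay from 7.13 to 7.89 in KO arrays and from 8.01 to 8.52 in WT arrays without overlap. That list was carried by Cd68, a lysosomal protein of macrophages that other cells express too, at 6.96 to 7.79 in KO and 7.90 to 8.45 in WT. Ptprc, the pan-leukocyte marker, had a mean of 2.62, Cd3e of 2.44 and Adgre1 of 2.19, all in the dim range. Car1, a carbonic anhydrase of colonocytes, was the one epithelial marker whose arrays did not overlap, at 10.77 to 11.42 in KO and 11.47 to 11.92 in WT. Of all marker genes 0 passed the threshold between genotypes in either treatment. The part of these markers in the 8 differences was not tested.

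The response to rosiglitazone was a contrast the choice did not name, but it uses the same arrays. A gene picked for low KO and high WT readings in rosiglitazone is favoured to show a drug difference, so these tests are not fully independent of the choice. The difference of the responses is the genotype difference in rosiglitazone minus that in vehicle. Both of those chose the genes, so nothing is read from its p-values and counts, here or below. Of the 8 genes 0 passed the adjusted threshold in KO, 0 in WT, and 0 for the difference of the responses (limma; 0% of all probe sets in each). At an unadjusted p under 0.05 there were 2 of 8 genes in KO (3.06% of all probe sets), 2 in WT (0.991%) and 3 for the difference (2.32%). In a fit that blocks on the donor mouse as a fixed term these were 4 (7.49%), 5 (3.85%) and 4 (5.09%), and again 0 passed after adjustment. That block rests on the 4 mice with both treatments and leaves 2 residual degrees of freedom.

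1810065E05Rik was higher after the drug in both WT mice with paired arrays, by 1.38 in mouse 42 and 1.41 in mouse 47, and in both KO mice, by 0.14 in mouse 44 and 0.85 in mouse 46. The difference in WT was 0.44 (SE 0.72, n = 3 and 2, adjusted p = 1, limma) without a block and 1.40 (SE 0.18, adjusted p = 0.267) in the fit blocked on the donor. The array of mouse 48, which had no vehicle partner, read below both WT vehicle arrays. The unblocked WT value was 1.40 without that array, 0.10 without WT rosiglitazone replicate 2, 0.18 without WT vehicle replicate 1, 0.70 without WT vehicle replicate 2 and -0.18 without WT rosiglitazone replicate 3. In KO the difference was 0.26 (SE 0.72, n = 3 and 2, adjusted p = 1), and without both arrays of mouse 46 it was -0.12.

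Apol10a had its larger drug difference in KO, and it passed the adjusted threshold in neither genotype. The KO rosiglitazone arrays exceeded the KO vehicle arrays by 0.96 in mouse 44 and 1.11 in mouse 46, and by 0.94 in the fit (SE 0.28, n = 3 and 2, adjusted p = 1, limma). With the donor as a random block it was 0.98 (adjusted p = 0.551), and over its alternatives the difference ran from 0.83 to 1.03. In WT it was -0.01 (SE 0.28, n = 3 and 2, adjusted p = 1), with 0.12 in mouse 42 and 0.45 in mouse 47. The difference of the responses, KO minus WT, was 0.94 (SE 0.39, adjusted p = 1), and the genotype gap was accordingly narrower in rosiglitazone than in vehicle.

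Adhfe1 moved in opposite directions. Its rosiglitazone readings were below vehicle by -0.56 and -0.22 in KO mice 44 and 46, and above vehicle by 0.46 and 0.67 in WT mice 42 and 47. The fit gave -0.37 in KO (SE 0.15, n = 3 and 2, adjusted p = 1) and 0.48 in WT (SE 0.15, n = 3 and 2, adjusted p = 1, limma). The difference of the responses was -0.86 (SE 0.21, adjusted p = 1). It was -0.95 (adjusted p = 0.843) in the fit blocked on the donor. Both WT mice higher with both KO mice lower was found in 6.01% of all probe sets.

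Arl14 was higher after the drug in WT by 0.63 in mouse 42 and 0.56 in mouse 47, with a fitted difference of 0.56 (SE 0.22, n = 3 and 2, adjusted p = 1, limma). In KO the difference was -0.12 (SE 0.22, n = 3 and 2, adjusted p = 1), and it turned to 0.12 without the array of mouse 45. Tcaf2 was higher after the drug in all 4 mice with paired arrays, by 0.54 and 0.34 in KO mice 44 and 46 and by 0.48 and 0.45 in WT mice 42 and 47. The fitted values of Tcaf2 were 0.21 in KO and 0.35 in WT (SE 0.22, n = 3 and 2, adjusted p = 1 each). The KO value was 0.44 in the fit blocked on the donor and without KO rosiglitazone replicate 2, and 0.043 without KO rosiglitazone replicate 3. Tcaf2, 1810065E05Rik, Arl14 and Apol10a shared this direction in all 4 mice, as did 6.33% of all probe sets. For Arl14 the change was 0.22 in KO mouse 44 and only 0.025 in KO mouse 46.

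Foxd2, Sema3f and Myrfl had no direction that the paired mice shared in both genotypes. Foxd2 read above vehicle by 0.34 and 0.40 in WT mice 42 and 47, and by -0.09 and 0.32 in KO mice 44 and 46. Sema3f had 0.25 and 0.23 in KO mice 44 and 46, against 0.11 and -0.10 in WT mice 42 and 47. Myrfl had -0.36 in KO mouse 44 and 1.34 in KO mouse 46, against 0.32 and -0.47 in WT mice 42 and 47. The 95% intervals of their fitted drug differences ran from -0.34 to 0.71 for Foxd2 in KO and from -0.39 to 0.67 in WT. Those of Myrfl ran from -0.25 to 1.12 in KO and from -0.71 to 0.65 in WT. Those of Sema3f ran from -0.30 to 0.62 in KO and from -0.40 to 0.52 in WT. Drug differences within these intervals were not excluded.

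**Figure D3:**
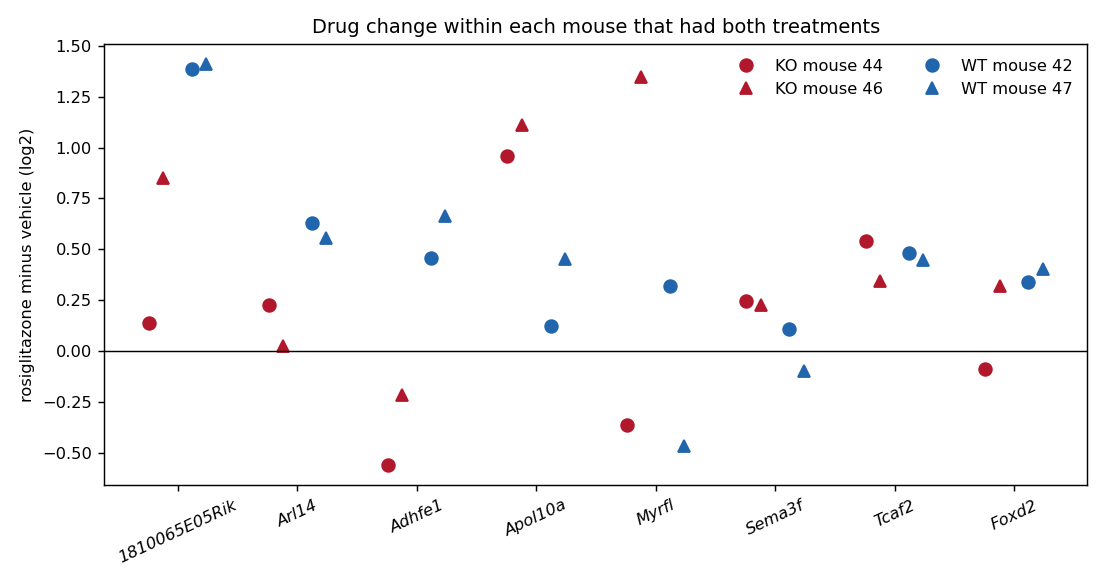
Rosiglitazone minus vehicle (log2, vertical axis) within each of the 4 mice that had both treatments, for each of the 8 genes. Red points are KO mice 44 and 46 and blue points WT mice 42 and 47; Adhfe1 is below 0 in both KO mice and above 0 in both WT mice, and Apol10a reaches 0.96 and 1.11 in KO mice.

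The genes around and related to the 8 were not used in the choice and were tested between genotypes. Of 32 chromosome neighbours, the 2 nearest measured genes on each side of each gene, 0 passed in rosiglitazone (0.0216% of all probe sets) and 0 in vehicle (limma). At an unadjusted p under 0.05 there were 2 in each treatment, where all probe sets gave 4.81% in rosiglitazone and 5.69% in vehicle. The median difference of the neighbours was 0.05 in rosiglitazone and 0.12 in vehicle, against 0.00 and 0.03 over all probe sets. The neighbour with the largest difference was Apol7a, an apolipoprotein L gene. Apol7a was the nearest measured gene on one side of Apol10a, with 5 RefSeq genes between them. It read 3.50 to 4.40 in KO arrays and 4.53 to 5.15 in WT arrays without overlap. Its difference was -0.89 in rosiglitazone (SE 0.24, adjusted p = 0.731, limma) and -1.01 in vehicle (SE 0.30, adjusted p = 0.846). Apol7c and Apol8, on the other side of Apol10a, differed by 0.09 and 0.31 in rosiglitazone and by 0.48 and 0.00 in vehicle. Apolipoprotein L genes resemble each other in sequence, and probe sequences were not used here, so signal shared between Apol10a and Apol7a cannot be told apart.

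**Figure D4:**
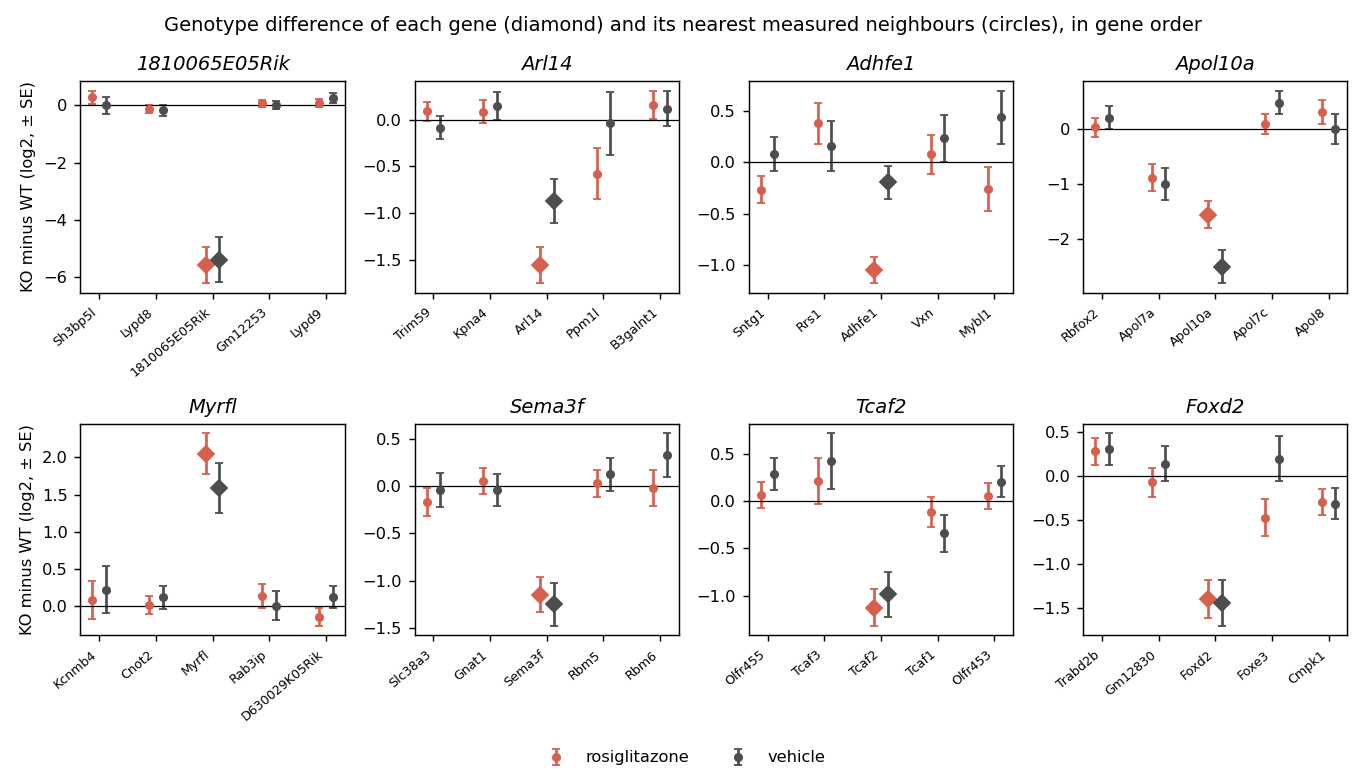
Difference KO minus WT (log2 ± SE, vertical axis, its own scale in each panel) of each gene (diamond) and of the 2 nearest measured genes on each side in chromosome order (circles), under rosiglitazone and under vehicle. The diamonds stand away from 0 in each panel except Adhfe1 under vehicle at -0.19, which the choice of the genes largely fixes. Apol7a, the nearest measured gene on one side of Apol10a, is the neighbour with the largest difference. Under rosiglitazone Ppm1l in the Arl14 panel lies at -0.58 and Foxe3 in the Foxd2 panel at -0.47.

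Among measured genes, 1810065E05Rik has Lypd8, which encodes a secreted antibacterial protein of the colon, on one side and Gm12253 and Lypd9 on the other. Lypd8 differed by -0.12 in rosiglitazone and -0.17 in vehicle at a mean level of 12.06, and Lypd9 by 0.09 and 0.26. Tcaf2 stands between its paralogs Tcaf3 and Tcaf1, which differed by 0.21 and -0.11 in rosiglitazone and by 0.43 and -0.34 in vehicle. Foxe3, the forkhead gene nearest to Foxd2, differed by -0.47 in rosiglitazone and 0.20 in vehicle. None of these passed the threshold.

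Of 89 listed relatives of the 8 genes 68 were measured, and 0 passed between genotypes in rosiglitazone or in vehicle (limma). At an unadjusted p under 0.05 there were 7 in rosiglitazone (4.81% of all probe sets) and 5 in vehicle (5.69%). Their median difference was 0.00 in rosiglitazone and 0.02 in vehicle. The relatives Apol7a, Apol7c, Apol8, Tcaf1 and Tcaf3 are also chromosome neighbours, so the sets share genes. Apol7a and Apol7c, the neighbours under the unadjusted 0.05 in vehicle, are counted in both sets. Among the 6 other class 3 semaphorins Sema3e differed most in rosiglitazone, by -1.33 (SE 0.46, adjusted p = 0.95), with -0.23 in vehicle. Sema3a differed most in vehicle, by 0.71 (SE 0.26, adjusted p = 0.846), with 0.39 in rosiglitazone. Among 7 semaphorin receptors the largest in both treatments was Nrp2, the neuropilin that binds Sema3f, at 0.42 in rosiglitazone and 0.61 in vehicle (SE 0.31, adjusted p = 0.855). Of 7 measured genes of hydroxyacid metabolism and the GABA shunt, Idh1, the cytosolic isocitrate dehydrogenase, had the largest in both, -0.33 in rosiglitazone and -0.44 in vehicle. Among 9 measured ARF-like genes and partners of Arl14 the largest was Arl2 in rosiglitazone (-0.28) and the dim Arl11 in vehicle (0.35). Among 8 TCAF and TRPM genes it was the channel gene Trpm6 in rosiglitazone (-0.40) and Tcaf3 in vehicle (0.43). Of 25 forkhead genes it was Foxq1 in rosiglitazone (-0.50) and Foxa3 in vehicle (-0.67). Of the 68 relatives 3 had no overlap between KO and WT arrays (1.93% of all probe sets). Besides Apol7a these were Foxq1 and Tmem98, named after their values were seen. Foxq1, a forkhead factor, read 7.52 to 8.17 in KO and 8.23 to 8.53 in WT, and Tmem98, a partner of Myrf, 8.41 to 8.74 in KO and 8.76 to 9.18 in WT.

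The genes with the most similar profile over the 10 arrays were found by the root-mean-square difference of log2 levels, each centred on its own mean, among 17980 genes. For 1810065E05Rik these were Cyp2c65, a cytochrome P450 (0.79), and Gsdmc2, a gasdermin (1.08), where the profile of 1810065E05Rik itself has a root mean square of 2.87. Cyp2c65 read 1.75 to 2.14 in KO and 4.60 to 7.24 in WT, and Gsdmc2 3.94 to 5.97 in KO and 8.52 to 9.98 in WT. Both belong to families of close sequence, so their probe sets may read several copies. For Apol10a they were Ptges, a prostaglandin E synthase (0.39), and Fa2h, a fatty acid hydroxylase (0.53), and for Foxd2 Ptges (0.28) and Ets1, a transcription factor (0.28). Ptges read 2.96 to 4.04 in KO and 4.85 to 5.34 in WT.

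For Myrfl the nearest profile was that of Mt1, a metallothionein (0.40), at 10.10 to 10.62 in KO and 8.30 to 8.73 in WT, followed by Fam171a1 (0.57). For Sema3f they were Gsdmc (0.25) and Tnfrsf18 (0.26), and for Tcaf2 Mgat4b, a glycosyltransferase (0.23), and Plin2, a lipid droplet coat protein (0.25). Plin2 read 7.46 to 7.71 in KO and 7.97 to 8.84 in WT. For Arl14 the nearest were Mboat2 (0.35) and Rnf183 (0.35), and for Adhfe1 Shroom1 (0.22) and Iqsec1 (0.23). Of these Mboat2, Shroom1 and Iqsec1 overlapped between KO and WT arrays. The root mean square of the gene's own profile was 1.06 (Apol10a), 0.75 (Foxd2), 1.00 (Myrfl), 0.63 (Sema3f), 0.59 (Tcaf2), 0.70 (Arl14) and 0.43 (Adhfe1). A smaller distance is therefore not a closer likeness from one gene to another. Likeness was measured on the arrays that chose the 8 genes and is a description.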

How the data were processed

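Expression in 10 arrays (Affymetrix whole-transcript labelling) was deposited as log2 values that the authors had made by RMA, per the submitters' processing notes. RMA corrects background, normalizes arrays to one distribution by quantiles and summarises probes to probe sets. No source used here gives its version. Arrays give no read depth, so their number limits precision. All 10 columns were mapped to samples by name, with 0 left unused. Of 35556 probe sets 23099 had a platform annotation and were tested. Of these, 21218 carried 1 gene symbol and 1881 several. Where a gene had several probe sets, the one with the highest mean stood for it.

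limma 3.58.1 (R 4.3.3) was fitted with a mean per group over all 10 arrays (6 residual and 4.39 prior degrees of freedom), with eBayes and two-sided p-values adjusted by Benjamini-Hochberg over 23099 probe sets at 0.05. The procedure was tested on simulated data. The 8 genes, the lists of relatives and markers, the tests and the motifs were chosen with earlier results of these data known. Named genes were the 8, Pparg, relatives and neighbours (as 1 list) past the threshold or with the largest difference of their list, and the 2 most similar profiles per gene. Other neighbours, relatives and markers in the text were chosen after their values were seen. RefSeq GRCm38.p6 gave sequences, names and gene order.

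The donor mouse pairs the arrays, since the labels give it. Differences between KO mice 44 and 46 in vehicle and in rosiglitazone correlated at r = 0.487 across probe sets, and those between WT mice 42 and 47 at r = 0.44. Donor blocks (random, consensus correlation 0.438, statmod 1.5.0; or fixed) were alternatives. So were centring, repeated quantile normalization, a filter on dim probe sets, all probe sets, an intensity trend, the mean of a gene's probe sets, only the groups compared, leaving out each array, and leaving out mouse 46.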

Additional observations from a re-analysis of the deposited data

Results flagged for a closer look

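Adhfe1 drew attention because its paired mice moved in opposite directions after rosiglitazone, lower in both KO mice and higher in both WT mice. The difference of the responses, KO minus WT, was -0.86 on the log2 scale (SE 0.21, n = 3 and 2 arrays per genotype), and limma gave it an adjusted p of 1 (from 0.843 to 1 over its alternatives). The gene was chosen on the same arrays, and 6.01% of all probe sets had this pattern of directions. The difference of the responses is the genotype difference in rosiglitazone minus that in vehicle. Both were used in the choice, so nothing is read from its p.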

How the results depend on the processing

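Over 19 alternatives 408 of 445 drug values of the 8 genes kept their direction, with 0 past the adjusted threshold. The genotype differences also kept theirs, which the choice of the genes largely fixes and which is no sign of stability. Probe sets called between genotypes in vehicle (0 as reported) numbered 1 with the replicate block (donor as a random block), 2 with centred arrays, 1 with repeated quantile normalization, 1 among bright probe sets, 2 with an intensity trend and 4 with only the groups compared. In rosiglitazone (5 as reported) they numbered 1 with repeated quantile normalization, 1 over all probe sets, 8 with a trend, 1 with only the groups compared and 1 without mouse 46. Leaving out single arrays gave 0 to 6 in vehicle and 1 to 23 in rosiglitazone, with 6 and 23 both without WT rosiglitazone replicate 1. For the drug in KO (0 as reported) the random replicate block gave 1. Counts of called relatives and neighbours were 0 throughout.

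Small drug differences turned sign. With the donor as a random replicate block the WT difference of Apol10a was 0.12 and the difference of responses of Foxd2 -0.087. With the donor as a fixed replicate block Arl14 in KO was 0.12, Apol10a in WT 0.29 and the Foxd2 difference of responses -0.26; neither block changed a call of the 8 genes. Centring gave 0.038 for Apol10a and 0.014 for Myrfl in WT, and repeated quantile normalization -0.026 for the Foxd2 difference of responses. Without mouse 46 the KO differences were -0.12 for 1810065E05Rik, -0.16 for Myrfl, -0.00239 for Sema3f and -0.033 for Foxd2, and the differences of responses -0.13 for Myrfl, -0.065 for Sema3f and -0.17 for Foxd2. Leaving out single arrays gave KO ranges of -0.28 to 0.12 (Arl14), -0.10 to 0.43 (Sema3f), 0.043 to 0.44 (Tcaf2), 0.12 to 0.71 (Myrfl) and -0.12 to 0.49 (Foxd2). The WT ranges were -0.18 to 1.40 (1810065E05Rik), -0.31 to 0.30 (Apol10a), -0.30 to 0.24 (Myrfl) and -0.076 to 0.20 (Sema3f). The ranges of the difference of responses were -1.14 to 0.43 (1810065E05Rik), -0.17 to 0.37 (Sema3f), -0.31 to 0.088 (Tcaf2) and -0.25 to 0.35 (Foxd2). The cause was not tested. An arm left with 1 array was assumed to vary like the others. The fixed block could not be fitted for genotype, and the mean of probe sets gave no value for genes with 1 probe set. The few arrays per group limit what can be detected.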
